A study of Mus musculus with 28 samples.

Results

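Germinal center B cells of mice were profiled by RNA-seq, and the Cre control group, 5 libraries, was compared with the WT group, 3 libraries, together 8 of the 28 libraries in the series. They were chosen by their titles. Both groups carry Cg1Cre(+/-) and Tbl1xr1(WT/WT). Cg1Cre expresses Cre recombinase in B cells that respond to antigen, so recombination depends on that response in each animal. The other groups used for comparison were KO, with Tbl1xr1(KO/KO), 5 libraries, and D370Y, with Tbl1xr1(D370Y/WT), 5 libraries. The 2 ImuBcl6 groups of 5 libraries each add the ImuBCL6 allele, with D370Y (ImuBcl6_D370Y) or with unmutated Tbl1xr1 (ImuBcl6), and enter only as levels. All 28 libraries carry Cg1Cre(+/-) and were made from total RNA. The TruSeq stranded kit is named for the Cre control and KO libraries, and no kit is given for the other 18 libraries. Strain, age, immunisation and the animal behind each library are not stated in the labels, so p-values measure the spread between these libraries, which may be technical. Differences between animals, days or kits cannot be told apart from the group.

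Germinal center B cells are B cells that have met antigen, divide fast in the follicles of lymphoid organs and mutate their antibody genes. BCL6 is the main transcriptional repressor of this state, and TBL1XR1 belongs to SMRT/NCOR, a corepressor that BCL6 recruits to its targets. In RNA-seq, a gene's read count follows its RNA level, and it also depends on the length and base composition of the transcript, on near-identical copies elsewhere in the genome and on other genes that overlap it. A pair of library groups that carry the same genotype label shows how far such gene classes move between library sets.

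Levels are CPM as deposited, which scale reads to each library's own total, and differences are Cre control minus WT on log2(CPM + 1), with limma's standard error and Benjamini-Hochberg adjusted p. A gene was called at an adjusted p below 0.05. A fold is a ratio of mean CPM, without the pseudocount.

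Sequences of some of the genes that shifted are shown first. Mir682, a microRNA gene (chr13:75645046-75645141, plus strand, GRCm38, GENCODE M21), lies whole inside Gm4149, a pseudogene of Rpl37a, and its 96 bases match 95 of 96 bases of the coding messenger RNA of Rpl37a (chr1:72711290-72713813, plus strand), which encodes a protein of the large ribosomal subunit. The base of Rpl37a that differs is in capitals.
Mir682: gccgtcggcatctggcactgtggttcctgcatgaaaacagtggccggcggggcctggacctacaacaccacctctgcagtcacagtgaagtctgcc
Rpl37a: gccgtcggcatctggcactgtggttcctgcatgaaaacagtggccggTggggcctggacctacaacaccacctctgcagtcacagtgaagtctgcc
The mature microRNA of this gene lies at chr13:75645119-75645139 (plus strand, RefSeq, GRCm38.p6). Its seed, bases 2 to 8, is in capitals.
mmu-miR-682: cUGCAGUCacagugaagucug
A second pair of sequences shows base composition, with G and C in capitals over the first 90 coding bases. Samd9l (chr6:3372257-3399572, minus strand), an interferon-induced gene, had 34.4% G and C there, and Atf5 (chr7:44812256-44816658, minus strand), a stress response transcription factor, had 64.4%.
Samd9l: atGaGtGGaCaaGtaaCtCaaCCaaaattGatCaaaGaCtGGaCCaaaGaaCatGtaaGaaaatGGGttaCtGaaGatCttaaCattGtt
Atf5: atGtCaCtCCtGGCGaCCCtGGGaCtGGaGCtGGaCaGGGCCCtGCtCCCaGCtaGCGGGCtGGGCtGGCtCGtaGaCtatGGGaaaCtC

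Reads on listed genes numbered 30.03 to 32.00 M per library in Cre control and 19.02 to 19.43 M in WT. A count of 3 reads corresponds to 0.0786 to 0.0813 CPM in Cre control and 0.129 to 0.133 CPM in WT, so levels near these values rest on few reads. These limits cover counting error only. All 10 germinal center B cell markers examined were detected in every library. The sex pattern differed between the groups. Xist, expressed from the inactive X chromosome, had 179, 154, 105, 0.108 and 86.7 CPM in Cre control replicates 1 to 5 and 9.12, 4.43 and 2.22 CPM in WT replicates 1 to 3. Y-linked Ddx3y had 16.4 CPM in Cre control replicate 4, at most 0.134 CPM in the other 4 Cre control libraries, and 88.3 to 100 CPM in WT. Genes of the sex chromosomes were left out of the main tests for this reason, and 7561 genes were called with the Xist level as a term.

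Most tested genes differed between the groups. Of 10335 autosomal genes, 7970 (77.1%) were called, 4014 of them (38.8%) higher and 3956 (38.3%) lower in Cre control. Counts of tested genes in the classes below stand against these shares. Large falls outnumbered large rises. Past 1 log2 unit, 459 genes (4.44%) were higher and 1377 (13.3%) lower, while the median difference over all tested genes was 0.03. Library profiles correlated at 0.993 to 0.997 within Cre control and 0.997 to 0.998 within WT, and at 0.891 to 0.919 between them, across genes on log2(CPM + 1). In total RNA, a lower level of a gene cannot be told apart from fewer cells that express it.

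The 11 genes described among the 12 largest rises at a mean of at least 5 CPM ran from 5.26 to 6.93 log2 units. Predicted gene models and pseudogenes were not ranked among them. All 11 genes were at or below 1.68 CPM in every WT library and at or above 40 CPM in every Cre control library. Of these 11 genes, 9 have exons that overlap exons of a gene on the other strand, 2 share at least 10% of their 50-base words with another locus, and 9 have either property.

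Snx22, a sorting nexin of membrane traffic (chr9:66065176-66069719, minus strand), rose most. Snx22 had 167, 160, 158, 169 and 170 CPM in Cre control libraries and 0.258, 0.516 and 0.31 CPM in WT libraries. The groups lay far apart, with a mean 455 times that of WT (6.93 log2 units, SE 0.07, adjusted p = 5.93e-17). Exons of Snx22 overlap 825 bases of Ppib, a secretory-pathway cyclophilin on the other strand. Ppib itself, chosen after the values were seen as are the other overlap partners below, had 264 to 286 CPM in Cre control and 193 to 203 CPM in WT, a difference of 0.48 (adjusted p = 2.43e-07).

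Mir682 had 291, 234, 218, 235 and 227 CPM in Cre control libraries and 0.775, 1.12 and 1.68 CPM in WT libraries. Mir682 thus stood 202 times higher in Cre control by means (6.80 log2 units, SE 0.12, adjusted p = 2.92e-13). Reads on this symbol need not come from a microRNA precursor, since the same 96 bases stand in Gm4149. Rpl37a, chosen for its match to Mir682, had 52.4, 45.5, 41.8, 44.3 and 44.8 CPM in Cre control libraries and 23.5, 25.3 and 28.1 CPM in WT libraries (0.81 log2 units, SE 0.08, adjusted p = 2.64e-07). Besides Gm4149 and Rpl37a, 6 annotated genes match 94 of the 96 bases and others match fewer. Some of these may lie inside one another, as Mir682 does in Gm4149, so they were not counted as loci. Which locus gave the reads was not tested.

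The overlapping genes had a like pattern. Ptger1, a prostaglandin E receptor, had 40, 52.6, 62.9, 57.7 and 61.4 CPM in Cre control libraries and 0.301, 0.172 and 0.133 CPM in WT libraries, a difference of 5.53 (SE 0.13, adjusted p = 2.11e-13). Fam18a (5.56) overlaps 1341 bases of Nubp1, an iron-sulfur cluster assembly factor at 142 to 160 CPM in Cre control and 124 to 138 CPM in WT. Degs2, a sphingolipid desaturase (5.36), overlaps 278 bases of Evl, an actin regulator at 241 to 279 CPM in Cre control and 194 to 204 CPM in WT. In each of these pairs the low gene of the WT libraries lies opposite a gene that both groups express. Acat3 (5.56) both overlaps Tcp1, a chaperonin subunit, over 571 bases and shares 48.2% of its 50-base words with Acat2, an acetyl-CoA acetyltransferase. Tcp1 went the other way, at 401 to 475 CPM in Cre control and 670 to 687 CPM in WT (-0.65, adjusted p = 6.11e-08). Sla2, an adaptor of antigen receptor signaling, rose by 5.26, and Zfp385c rose by 5.40 with a total of 2 reads in the WT libraries.

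Rpl35 and Rps28, of the large and small ribosomal subunits, were also among the 11. Rpl35 had 129, 105, 102, 116 and 112 CPM in Cre control libraries and 1.08, 0.947 and 0.842 CPM in WT libraries (5.86, SE 0.08, adjusted p = 5.15e-16), and overlaps 821 bases of Wdr38. Rps28 differed by 5.30.

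Fos and Mir682 were the 2 genes of these 11 with neither property as counted. For Mir682 the count misses copies. It leaves out loci that overlap a gene's own span, as Gm4149 does. It also needs 50 identical bases in a row, which the match of 95 of 96 bases to Rpl37a does not hold. Fos (chr12:85473890-85477273, plus strand), an immediate early transcription factor, had 67.7, 96.9, 128, 100 and 68.4 CPM in Cre control libraries and 1.46, 0.947 and 0.753 CPM in WT libraries. The groups did not overlap (5.48, SE 0.21, adjusted p = 2.48e-09).

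**Figure D1:**
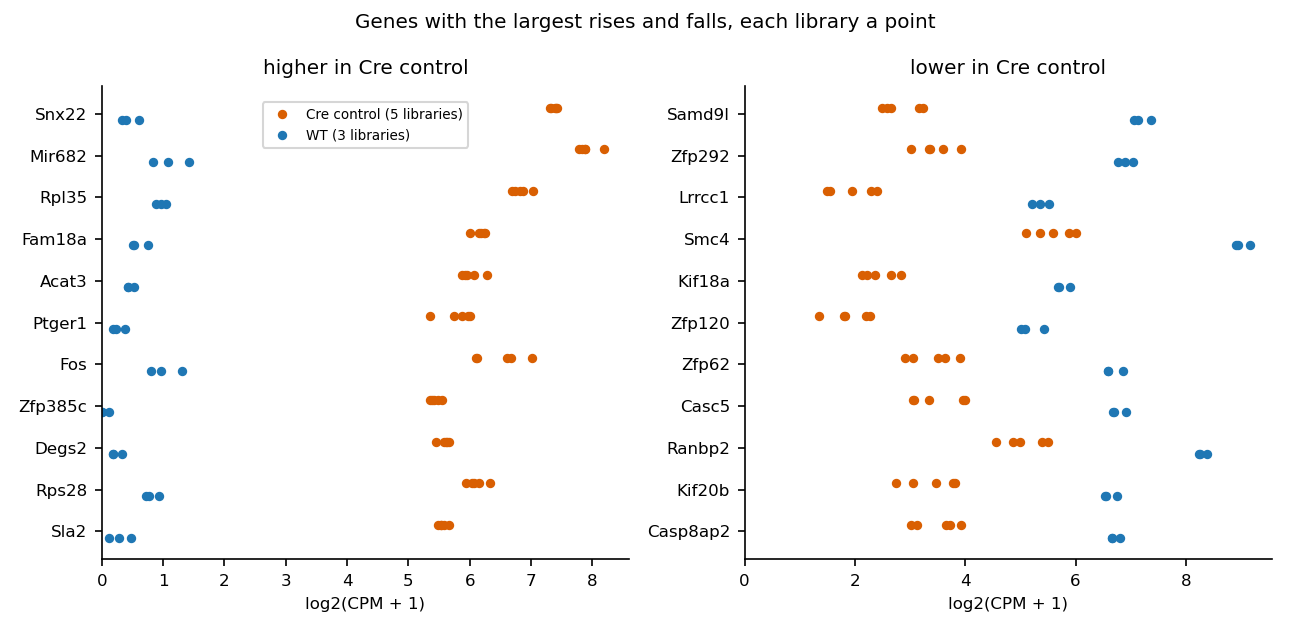
Level on log2(CPM + 1) of 11 of the 12 genes that rose most (left) and 11 of the 12 that fell most (right), with 1 point for each of the 5 Cre control and 3 WT libraries. Every risen gene is at or below 1.68 CPM in WT, and the fallen genes keep between 1.53 and 63.6 CPM in Cre control.

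The 11 genes described among the 12 largest falls ran from -4.36 to -3.22 log2 units and had a narrow range of base composition, 37.7% to 41.0% G and C, and transcripts of 4029 to 9986 bases. Samd9l fell most. It had 7.96, 8.43, 5.30, 4.63 and 4.97 CPM in Cre control libraries and 133, 140 and 164 CPM in WT libraries, so that WT stood 23.2 times higher (-4.36, SE 0.17, adjusted p = 1.41e-09). Smc4, a condensin subunit that compacts chromosomes, had 58.3, 63.6, 39.7, 47.5 and 33.3 CPM in Cre control libraries and 490, 481 and 576 CPM in WT libraries (-3.42, SE 0.20, adjusted p = 3.31e-07). In both genes every Cre control library lay below every WT library.

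The other 9 falls have varied roles. Kif18a (-3.32) and Kif20b (-3.23) are mitotic kinesins, and Casc5 (-3.28) acts at kinetochores. Lrrcc1 (-3.42) is a centrosomal protein, and Ranbp2 (-3.24) is a component of the nuclear pore. Zfp292 (-3.45), Zfp120 (-3.29) and Zfp62 (-3.28) encode zinc finger proteins, and Casp8ap2 fell by 3.22.

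Base composition ordered the differences across all genes. Among the 194 genes with less than 38% G and C in the longest transcript, 5 were higher and 180 lower, with a median of -1.42. The median was -1.09 over the 1043 genes from 38% to 42%, -0.61 over the 1901 from 42% to 46% and -0.16 over the 2173 from 46% to 50%. It was 0.21 over the 2191 genes from 50% to 54% and 0.36 over the 1883 from 54% to 58%. At 58% and above, 674 of 899 genes were higher and 8 lower, with a median of 0.39. The share of reads moved in step. Genes under 42% took 5.27% to 5.98% of the reads on listed genes in Cre control and 11.7% to 13.0% in WT, and genes at 54% and above took 31.7% to 33.7% in Cre control and 23.2% to 24.5% in WT.

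Transcript length ordered them too. Over the 39 genes with a longest transcript under 500 bases the median was 0.50, with 23 higher and 5 lower, and 6 of the 39 passed the low-value filter through Cre control alone. Without the filter 48 of 332 such genes were higher and 37 lower, with a median of 0.01. Of all 15546 genes without the filter, 27.8% were higher and 27.3% lower. From 500 to 1000 bases 282 of 407 genes were higher and 33 lower, with a median of 0.37, or 0.09 over 816 genes without the filter. The median declined to 0.25 at 1000 to 2000 bases (1701 genes), 0.08 at 2000 to 4000 (4311 genes) and -0.23 at 4000 to 8000 (3286 genes). At 8000 bases and above, 58 of 540 genes were higher and 386 lower, with a median of -0.73.

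The 2 gradients were read together in the genes without shared 50-base words or overlap on the other strand. Below 46% G and C, medians by length, from under 2000 bases to 8000 and over, were -0.53 (139 genes), -0.72 (473), -1.13 (504) and -1.70 (72). At 54% and above, they were 0.35 (489 genes), 0.36 (600), 0.32 (302) and 0.20 (21). The length gradient was thus wide in AT-rich transcripts and narrow in GC-rich ones. These gradients are a description across genes, which are not independent replicates.

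**Figure D2:**
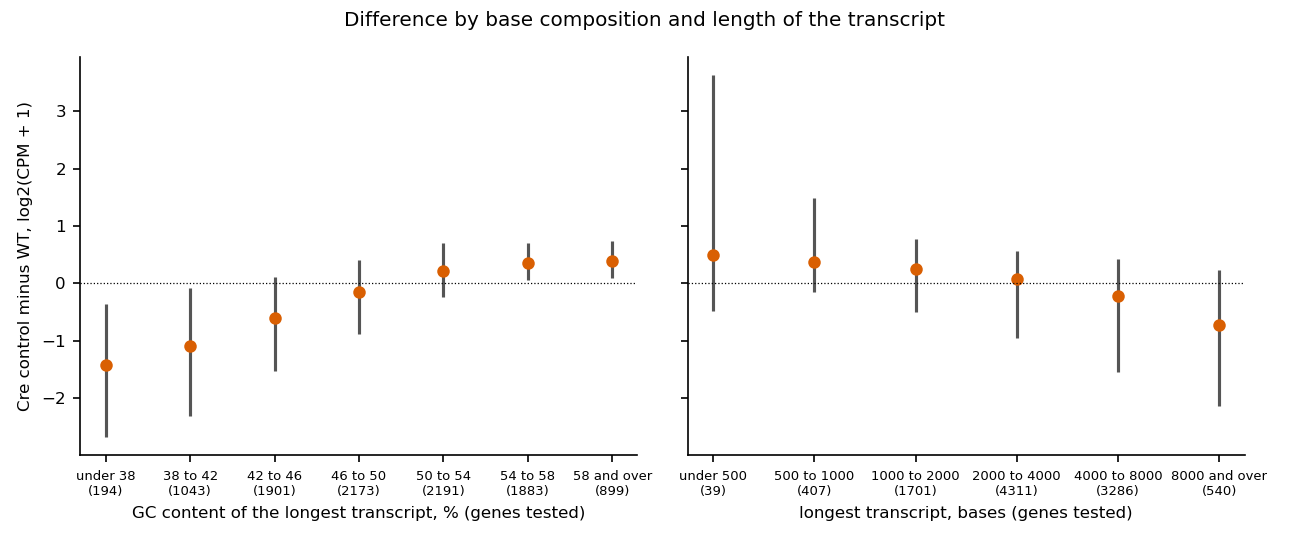
Log2 difference of CPM + 1, Cre control minus WT, by bins of transcript G and C content and of transcript length, for tested autosomal genes. Dots are medians, bars run from the 10th to the 90th percentile, and the number of genes stands under each bin. The median reaches -1.42 in the bin of lowest G and C content and -0.73 in the bin of longest transcripts.

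Genes with copies elsewhere formed a separate gradient. The median difference was 0.05 over the 6835 genes that share no 50-base word with another locus and -0.09 over the 2738 that share less than 10%. It was 0.18 at 10% to 25% (369 genes), 0.38 at 25% to 50% (224) and 0.79 at 50% to 75%, where 63 of 88 genes were higher and 17 lower. Among the 30 genes at 75% and over, 20 were higher and 4 lower, with a median of 0.96. In these last bins 8 and 3 genes passed the low-value filter through Cre control alone. Without the filter the medians were 0.33 at 50% to 75% (138 genes) and 0.04 at 75% and over, where 26 of 71 genes were higher and 8 lower. Of all 15546 genes without the filter, 27.8% were higher and 27.3% lower. Genes that share 50% or more took 1.63% to 1.91% of reads in Cre control and 0.860% to 0.886% in WT.

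Cytosolic ribosomal protein genes, which have many processed pseudogenes, shifted most among the multi-copy classes. Of 77 tested genes, 63 were higher and 9 lower, with a median of 1.03. Of these 77, 7 passed the low-value filter through the Cre control libraries alone. Without the filter, 63 of 80 were higher and 9 lower, with a median of 0.98, where 27.8% of all 15546 genes were higher and 27.3% lower. The class took 3.75% to 4.60% of reads in Cre control and 2.09% to 2.16% in WT. The spread within the class was wide. Rps25 had 185 to 252 CPM in Cre control and 5.29 to 5.72 CPM in WT (5.02, adjusted p = 1.41e-15), and Rpl21 had 186 to 236 CPM in Cre control and 5.68 to 6.33 CPM in WT (4.89). Rps16 differed by 4.86, Rpl38 by 4.18 and Rpl36 by 3.52. By contrast, Rpl5 averaged 12.1 ± 2.44 CPM in Cre control and 24.5 ± 1.45 CPM in WT (SD, n = 5 and n = 3), a fall of 0.98 (-0.98, limma adjusted p = 1.18e-05). Rpl23 also fell, at 86.7 ± 7.15 CPM in Cre control and 152 ± 18 CPM in WT (-0.80, limma adjusted p = 3.55e-07), as did Rplp2 (-0.71). The 15 ribosomal protein genes that share less than 10% of their 50-base words had a median of 0.58, and the 16 that share 50% or more had a median of 1.30.

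Tubulins, the subunits of microtubules, rose in 12 of 13 tested genes, with none lower and a median of 0.70. Tuba1b had 428, 393, 392, 375 and 375 CPM in Cre control libraries and 117, 127 and 107 CPM in WT libraries (1.74, SE 0.06, adjusted p = 9.09e-12), and 82.2% of its 50-base words occur at another locus. Tuba1a (1.74) and Tubb4b (1.19) rose as well. Gapdh, a glycolytic enzyme with many pseudogenes, had 8.91, 8.25, 8.81, 8.21 and 9 CPM in Cre control libraries and 1.38, 1.12 and 1.20 CPM in WT libraries (2.11, adjusted p = 9.47e-11). Both levels are low for this gene, which is strongly expressed in most cells.

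Replication-dependent histone genes, whose messenger RNAs lack a poly(A) tail, were at low levels. Of 68 listed genes 20 were tested, 10 higher and 1 lower with a median of 0.33, and 7 of the 20 passed the filter through Cre control alone. Hist1h2bg had 1.40 to 2.93 CPM in Cre control and 0.129 to 0.177 CPM in WT (1.32, adjusted p = 1.80e-06). Hist1h2bm had 1.13 to 1.86 CPM in Cre control and 0.301 to 0.430 CPM in WT (0.86).

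Predicted gene models and pseudogenes spread in both directions. Of 146 tested models with a Gm number 69 were higher and 43 lower, with a median of 0.21, and 34 passed the filter through Cre control alone. Without the filter 95 of 420 were higher and 76 lower, with a median of 0.01. Gm5148 had 161, 134, 130, 136 and 132 CPM in Cre control libraries and no read in any WT library. That is at least 1064-fold higher in Cre control, against 3 reads in each WT library. Its exons overlap Rps23-ps1, a ribosomal protein pseudogene on the other strand, over 396 bases. Gm6251, a processed pseudogene that resembles Rpl32, had 193, 156, 149, 168 and 163 CPM in Cre control libraries and 0.516, 0.689 and 0.753 CPM in WT libraries (6.65, adjusted p = 2.69e-16). Rps15a-ps4 (6.17) and Gm1821, a copy of the ubiquitin gene Ubb (5.17), behaved alike. Over all annotated pseudogenes, 39 of 80 tested were higher and 19 lower, with a median of 0.25, and 12 passed the filter through Cre control alone. Without the filter 52 of 195 were higher and 37 lower, with a median of 0.01, where 27.8% of all 15546 genes were higher and 27.3% lower.

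Other gene families fell or were mixed. Of 280 tested Zfp genes, which encode zinc finger proteins in large families, 58 were higher and 178 lower, with a median of -0.74. Their median transcript had 44.6% G and C. Gimap GTPases of lymphocytes were lower in 5 of 8 and higher in 1, including Gimap8 (-1.54) and Gimap4 (-1.31). The clustered Ly6, Slfn, Ifi and Gbp genes were higher in 6 and lower in 14 of 24. Class I MHC genes were higher in 4 and lower in 2 of 10, and H2-T23, a nonclassical member, had 225 to 261 CPM in Cre control and 135 to 146 CPM in WT (0.76, adjusted p = 1.07e-08). Multi-copy families therefore did not share a direction.

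Overlap on the other strand formed another gradient. Over 6784 genes without such overlap the median was -0.01. With 25% to 50% of exonic bases overlapped it was 0.29 (335 genes), or 0.16 over 466 genes without the filter. With 50% or more overlapped, 61 of 102 genes were higher and 20 lower, with a median of 0.40 and a 90th percentile of 2.43. Of the 102, 23 passed the filter through Cre control alone. Without the filter 84 of 176 such genes were higher and 22 lower, with a median of 0.15. These bins also differed in composition and length. Medians were 49.4% G and C and 3308 bases without overlap. They were 52.8% and 2628 bases at 25% to 50%, and 51.5% and 2248 bases at 50% or more. After a correction for G and C content and length the median difference was 0.05 without overlap. It was 0.16 at 25% to 50% and 0.35 at 50% or more. Where the gene on the other strand had 200 CPM or more, 80 of 128 genes were higher and 21 lower, with a 90th percentile of 2.80. Of the 128, 15 passed the filter through Cre control alone. Without the filter 82 of 152 were higher and 21 lower, with a median of 0.27. Long non-coding RNA genes, many of them antisense to coding genes, were higher in 133 (45.5%) and lower in 82 (28.1%) of 292 tested. Of the 292, 73 passed the filter through Cre control alone. Without the filter 181 of 771 were higher and 107 lower, with a median of 0.02, where 27.8% of all 15546 genes were higher and 27.3% lower.

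Overlap and shared words were more frequent among the largest rises than among all tested genes. Of all tested genes, 324 were below 1 CPM in every WT library and passed the filter through Cre control alone. Of these 324, 296 were called higher. The shares below include such genes and were not counted without them. Of 192 genes more than 2 log2 units higher, 186 had an annotated transcript. Among these, 72.6% overlapped exons on the other strand, against 34.0% of all tested genes, and 24.2% shared at least 10% of their 50-base words, against 6.91%. Either property held for 90.3%, against 39.0% of all tested genes. The large falls differed in composition. Of 324 such genes with a transcript, 97.5% had less than 46% G and C, against 30.5% of all tested genes, and their median transcript was 5612 bases long, against 3354. These shares are descriptions, and what produced them was not tested.

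**Figure D3:**
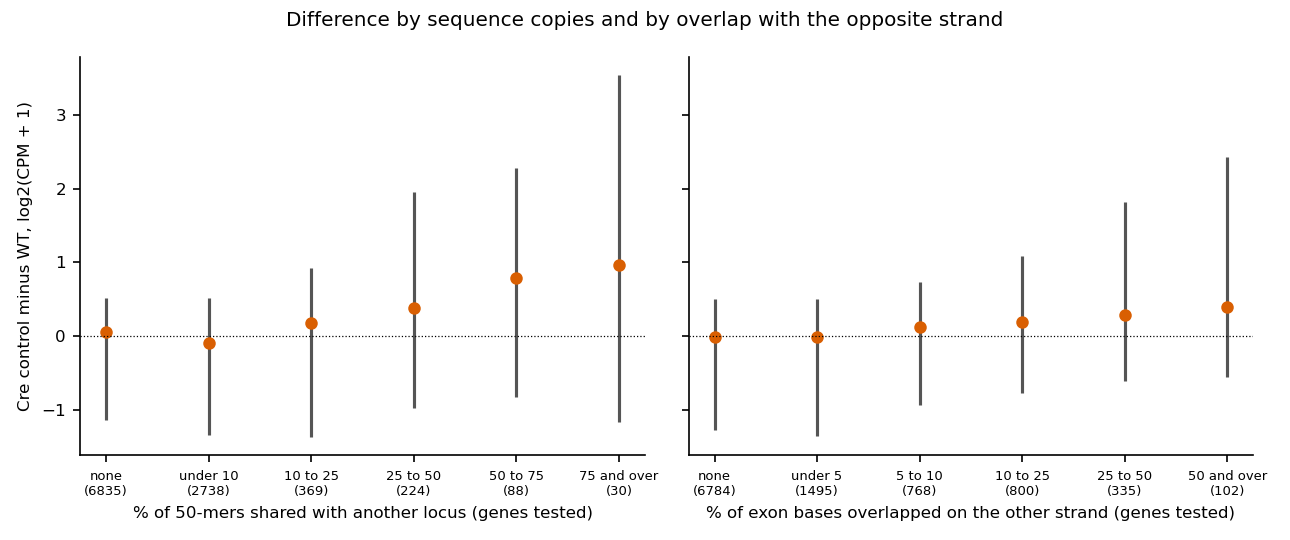
Log2 difference of CPM + 1, Cre control minus WT, by the share of a gene's 50-base words found at another locus and by the share of its exonic bases overlapped by exons on the other strand. Dots are medians and bars run from the 10th to the 90th percentile. The median is 0.96 in the bin with the most shared words (0.04 without the low-value filter) and 0.40 in the bin with the most overlap (0.15 without it).

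Short RNAs were mostly too low to test. Of 662 listed microRNA genes 6 were tested, 2 higher and 4 lower. Of these 6, 2 passed the filter through WT alone and 1 through Cre control alone. Leaving out any 1 WT library left 4 tested genes, 2 higher and 2 lower, with a median of 0.45 without WT replicate 1, 0.42 without replicate 2 and 0.41 without replicate 3, against -1.27 with all libraries. Without the filter 7 of 128 were higher and 11 lower, with a median of 0.01, where 27.8% of all 15546 genes were higher and 27.3% lower. Mir703 had 0.135, 0.183, 0.210, 0.136 and 0.269 CPM in Cre control libraries and 5.38, 5.38 and 7.18 CPM in WT libraries (-2.55, adjusted p = 1.49e-10). Mir3064 fell by 2.15 (adjusted p = 1.17e-09), and so did Mir17hg, the host gene of the miR-17-92 cluster (-2.07, adjusted p = 5.88e-09). Of 119 listed small nucleolar and Cajal body RNAs 5 were tested, with 2 lower. These were Snord12 (-0.59) and Snord22 (-0.59). No small nuclear RNA passed the filter. Genes that host small nucleolar RNAs in their introns were lower in 5 and higher in 1 of 9, among them Snhg6, with 13.2 to 15.6 CPM in Cre control and 22.1 to 24.7 CPM in WT (-0.66, adjusted p = 2.77e-06). Rpph1, the RNA of ribonuclease P, had 7.33 to 17.7 CPM in Cre control and 5.23 to 7.14 CPM in WT (0.61, adjusted p = 0.0292). The call for Rpph1 was lost without WT replicate 3 (0.49) or Cre control replicate 4 (0.59). Rmrp, the RNA of ribonuclease MRP, differed by 0.41 (adjusted p = 0.0261), and its groups overlapped. The call for Rmrp was lost without Cre control replicate 2 (0.34) or 3 (0.34), or without WT replicate 1 (0.44), 2 (0.42) or 3 (0.39).

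By the union of exons, the 32 tested genes under 500 bases had 18 higher and 5 lower, with a median of 0.46, and 4 of them passed the filter through Cre control alone. Without the filter 42 of 314 were higher and 37 lower, with a median of 0.01, where 27.8% of all 15546 genes were higher and 27.3% lower. The 208 genes from 500 to 1000 bases had 136 higher and 17 lower, with a median of 0.36, and 33 of them passed the filter through Cre control alone. Without the filter their median was 0.04 over 519 genes. Lists of protein complexes were counted next. Nuclear-encoded subunits of oxidative phosphorylation, which are mostly short messages, were higher in 56 and lower in 6 of 73 (median 0.39). Usmg5, a subunit of the ATP synthase, had 22.9 to 26.7 CPM in Cre control and 0.559 to 0.975 CPM in WT (3.90, adjusted p = 2.02e-13), and Atp5g1 had 26.2 to 32.9 CPM in Cre control and 1.42 to 1.77 CPM in WT (3.55, adjusted p = 4.21e-13). Atp5j2 differed by 2.12. Spliceosome and Sm protein genes were higher in 20 and lower in 4 of 30 (median 0.30). Here Lsm5, which takes part in RNA processing, rose by 2.93, and Sf3b1, a long AT-rich splicing factor gene, fell by 1.39. Proteasome genes were higher in 22 and lower in 9 of 34 (median 0.21), with Psmc6 at -1.55. Mediator and chromatin genes with long transcripts were lower in 17 and higher in 6 of 28 (median -0.46), among them the histone methyltransferases Setd2 (-2.25) and Ash1l (-2.05). Long nuclear RNAs were lower in 6 and higher in 1 of 14. Tug1 fell by 2.33, and Neat1, the RNA of paraspeckles, fell by 1.53.

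Immediate early genes, which are induced within minutes of cell dissociation or stimulation, rose in part. Of 25 tested genes 12 (48%) were higher and 3 (12%) lower, with a median of 0.26, against 38.8% and 38.3% of all tested genes. The median G and C content of the list was 55.5%. Among all tested genes with 54% to 58%, 75.4% were higher and 1.86% lower. After a correction for G and C content and length 8 members were higher and 5 lower, where 40.4% of all genes were higher and 23.1% lower. The list took 0.152% to 0.193% of reads in Cre control and 0.134% to 0.138% in WT. Fos stood alone in size. Jun, its partner in the AP-1 complex, had 22.8, 33.9, 40.8, 35.9 and 28.5 CPM in Cre control libraries and 5.51, 4.73 and 5.01 CPM in WT libraries (2.43, SE 0.15, adjusted p = 1.14e-08). Ppp1r15a, which ends the integrated stress response, had 47.4, 59.8, 64.1, 54.2 and 37.3 CPM in Cre control libraries and 9.25, 9.77 and 8.64 CPM in WT libraries (2.37, SE 0.14, adjusted p = 1.98e-08). Dusp1, a phosphatase that restrains MAP kinases, had 35.8, 40.6, 47.3, 39.9 and 20.6 CPM in Cre control libraries and 7.06, 7.19 and 6.65 CPM in WT libraries (2.20, SE 0.22, adjusted p = 6.66e-06). No Cre control library overlapped WT in these 3 genes. The share of all tested genes without overlap was not counted, and 77.1% of them were called, so this does not set the 3 genes apart.

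Smaller rises were found in Fosb (1.90), a paralog of Fos, Rhob (1.09), a small GTPase, and Zfp36 (1.05), which promotes decay of messenger RNAs. Ier2 (0.55), Dusp5 (0.36), Dusp2 (0.30) and Nr4a1 (0.26) rose as well. After a correction for G and C content and length the differences turned to -0.039 for Dusp5, -0.16 for Dusp2 and -0.14 for Nr4a1, and the call for Ier2 was lost (0.11). Of the other 14 tested members, Egr1 was higher with overlapping groups, 3 were lower and 10 were not called. Egr1 had 33.9 to 61.3 CPM in Cre control and 33.3 to 36.2 CPM in WT (0.42, adjusted p = 0.0259). The call for Egr1 was lost without Cre control replicate 3 (0.39) or 4 (0.39), or without WT replicate 1 (0.38) or 3 (0.43). Junb had 64.4 to 123 CPM in Cre control and 68.2 to 77.2 CPM in WT (0.44, adjusted p = 0.0691). Junb was called without Cre control replicate 1 (0.59), by edgeR (0.48) and by DESeq2 (0.47). Klf6 (-0.99), Cd69 (-1.02), an activation marker of lymphocytes, and Btg2 (-0.29) were lower. The list thus had members in both directions.

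The heat shock list was split as well, with 8 of 17 tested genes (47.1%) higher, 5 (29.4%) lower and a median of 0.28. Of all tested genes 38.8% were higher and 38.3% lower. Hspa1b, the inducible HSP70, had 28.8, 32.5, 36, 53 and 3.81 CPM in Cre control libraries and 0.172, 0.387 and 0.355 CPM in WT libraries (4.26, SE 0.78, adjusted p = 0.00204). Hspa1a, its near-identical neighbour, had 14.8, 16.0, 18.1, 29.4 and 1.69 CPM in Cre control libraries and 0.129, 0.215 and 0.177 CPM in WT libraries (3.51, SE 0.76, adjusted p = 0.00454). Cre control replicate 5 was the lowest of its group in both genes and still above WT. Without it the differences were 4.85 for Hspa1b and 4.08 for Hspa1a. The 2 genes share about 60.3% to 62.3% of their 50-base words with each other, so their separate levels are uncertain. Hspa8, the constitutive HSP70, had 641 to 871 CPM in Cre control and 291 to 379 CPM in WT (1.09, adjusted p = 2.30e-06). The cytosolic HSP90 genes parted: Hsp90ab1 had 3188 to 3390 CPM in Cre control and 2281 to 2388 CPM in WT (0.49), and Hsp90aa1 had 45.0 to 73.1 CPM in Cre control and 138 to 174 CPM in WT (-1.35, adjusted p = 1.07e-05). Hspa4l fell by 1.51.

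Cirbp, the cold-inducible RNA-binding protein and the tested member of the cold shock list, had 28.9, 29.3, 28.4, 27.5 and 41.5 CPM in Cre control libraries and 30.6, 30.0 and 24.5 CPM in WT libraries (0.12, adjusted p = 0.393). Genes of the integrated stress response were higher in 8 (53.3%) and lower in 1 of 15 (median 0.32), with a median G and C content of 57.2%. Atf5 had 23.7, 29.7, 34.7, 32.3 and 31.6 CPM in Cre control libraries and 10.2, 11.1 and 10.5 CPM in WT libraries (1.43, SE 0.10, adjusted p = 1e-08). Phgdh, of serine synthesis, differed by 1.38, and Ddit3, the stress factor CHOP, by 0.62. Hypoxia and glycolysis genes were higher in 9 (37.5%) and lower in 5 of 24 (median 0.10), so that the higher share was near the 38.8% of all tested genes. The p53 targets were higher in 4 and lower in 8 of 17 (median -0.12), with Trp53inp1 at -1.93. The labels do not give how long the cells were handled before lysis, and its part in these values was not tested.

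B cell gene lists were read against the 38.8% of all tested genes that were higher and the 38.3% that were lower. Genes of the germinal center list were higher in 6 and lower in 13 of 22 (median -0.21). Mybl1, a transcription factor of germinal center cells, had 53.1, 52.2, 38.6, 45.4 and 38.9 CPM in Cre control libraries and 299, 288 and 309 CPM in WT libraries (-2.70, SE 0.10, adjusted p = 1.45e-10). Rgs13, a regulator of chemokine signaling, fell by 2.50 (adjusted p = 7.31e-07), and Mef2c by 1.62. Their transcripts had 37.0%, 34.4% and 40.8% G and C. Dark zone genes, of the dividing compartment, were lower in 10 and higher in 3 of 18 (median -0.21), and after a correction for G and C content and length 6 were lower and 9 higher (median 0.13). Light zone genes, of the selecting compartment, were higher in 10 and lower in 5 of 20 (median 0.16). In the light zone list Bcl2a1d, a multi-copy survival gene, differed by 1.84 and Cd86, a costimulatory ligand, by -1.05. Mki67, the proliferation marker, had 353, 355, 244, 290 and 214 CPM in Cre control libraries and 1719, 1783 and 1914 CPM in WT libraries (-2.66, SE 0.17, adjusted p = 5.80e-07). Top2a, which untangles DNA, fell by 2.24, and Hmmr by 2.86. G2/M genes as a list were higher in 8 and lower in 10 of 22, and G1/S genes higher in 15 and lower in 6 of 24.

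Memory B cell genes were lower in 16 and higher in 4 of 23 (median -0.39), and naive B cell genes lower in 14 and higher in 2 of 18 (median -0.75). Cr2, the complement receptor CD21, had 68.2 to 93.2 CPM in Cre control and 285 to 369 CPM in WT (-2.01, adjusted p = 3.13e-09). Itga4 fell by 1.97, Btla by 1.87 and the survival gene Bcl2 by 1.64. Il9r, a cytokine receptor of memory B cells, had 5.78 to 15.1 CPM in Cre control and 20.9 to 28.1 CPM in WT (-1.49, adjusted p = 0.00138). BCL6 targets were lower in 13 and higher in 5 of 23 (median -0.27), but 5 lower and 11 higher (median 0.30) after the same correction. Among them were Atr (-2.77), a DNA damage kinase, and Zeb2 (-1.31), a transcription factor. Plasma cell genes were lower in 7 and higher in 1 of 18 with a median of 0.02, so that the lower share was near that of all genes, with Prdm1, the plasma cell regulator, at -0.94. MYC and ribosome biogenesis genes were higher in 15 and lower in 7 of 23 (median 0.37), NF-kB genes higher in 9 and lower in 2 of 17, and MHC class II presentation genes higher in 11 and lower in 3 of 15. In the NF-kB list the adhesion gene Icam1 differed by 0.55. H2-Eb2 of the MHC class II list fell by 0.81. B cell receptor signaling genes were higher in 15 and lower in 6 of 23, with Ppp3ca of calcineurin at -1.68. Interferon genes were higher in 5 and lower in 5 of 20, with Parp14 at -1.78.

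Tbl1xr1 (chr3:22076652-22216594, plus strand) had 80.6, 94.5, 85.7, 88.4 and 80.8 CPM in Cre control libraries and 156, 171 and 176 CPM in WT libraries (-0.96, SE 0.06, adjusted p = 3.71e-09). Every Cre control library was below every WT library, although neither group carries a Tbl1xr1 mutation by its label. The transcript has 41.9% G and C and 8237 bases. Bcl6 (chr16:23965052-23988852, minus strand) had 308, 346, 367, 358 and 369 CPM in Cre control libraries and 358, 366 and 364 CPM in WT libraries. Its groups overlapped, and it was not called (-0.06, SE 0.06, adjusted p = 0.383). Of the 11 tested genes of the SMRT/NCOR list 5 were higher and 3 lower. Ncor1 had 120 to 137 CPM in Cre control and 261 to 308 CPM in WT (-1.14), Cops2 fell by 2.70, and Hdac3 had 131 to 141 CPM in Cre control and 110 to 111 CPM in WT (0.29).

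After each library was corrected for G and C content and length, an alternative chosen after the data were seen, 4157 of 10284 genes (40.4%) were higher and 2378 (23.1%) lower. In genes without overlap on the other strand or shared words, corrected medians by bins of G and C content ran from -0.01 to 0.06. Over all genes, they ran from 0.04 to 0.18. The correction thus centred the genes without either property near 0, and not all genes. Corrected counts and class medians stand against that centre. Corrected medians were 0.99 for ribosomal proteins, 0.26 for tubulins, 0.39 for heat shock, 0.02 for immediate early genes and 0.32 for oxidative phosphorylation. They were -0.10 for Zfp genes, -0.32 for naive B cell genes, 0.30 for BCL6 targets and 0.13 for dark zone genes. Tbl1xr1 turned to 0.44 (adjusted p = 3.21e-07), while Samd9l stayed lower at -2.87, Mki67 at -1.71 and Mybl1 at -1.06. Fos stayed higher at 5.23. The sign turned for Snord12 (0.75), Snhg6 (0.31), Hspa4l (0.24), Klf6 (0.022), Cd69 (0.71), Zeb2 (0.30), H2-Eb2 (0.0086), Nubp1 (-0.0094), Evl (-0.033) and Tcp1 (0.45). Calls were lost for Mir703 (-0.11), Rpph1 (0.56), Rmrp (0.28), Neat1 (-0.11), Prdm1 (-0.34), Egr1 (0.16), Rpl5 (-0.16) and Cd2 (0.07). Among the classes, the median also turned for hosts of small nucleolar RNAs (0.40), long nuclear RNAs (0.42), class I MHC genes (-0.12) and small nucleolar and Cajal body RNAs (0.15), and for plasma cell genes (-0.03) and interferon genes (-0.01), which were near 0 before. A smaller comparison used 174 genes without overlap or shared words and with middling composition and length, 47.8% to 51.5% G and C and 2899 to 3861 bases. Of these 45 were higher and 61 lower, with a median of -0.05.

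Markers of other cells moved with the group in part. Of 12 myeloid markers 10 were higher and 1 lower, with a median of 0.91. Summed over the list, Cre control had 276 to 316 CPM and WT 180 to 201 CPM, and no marker was at 0 in all libraries. C1qa, of complement component C1q made by macrophages, had 21.2, 14.8, 13.8, 12 and 12 CPM in Cre control libraries and 0.818, 1.25 and 1.29 CPM in WT libraries (2.87, SE 0.16, adjusted p = 1.91e-09). C1qc (2.95), C1qb (2.64) and the macrophage receptor gene Csf1r (2.88, limma adjusted p = 2.95e-08) moved alike. Mpeg1 was lower, at 25.4 to 34.3 CPM in Cre control and 52.4 to 60.9 CPM in WT (-0.83). Of 9 listed T cell markers 3 were tested and all 3 were higher. Thy1 had 0.917 to 1.70 CPM in Cre control and 0.344 to 0.399 CPM in WT (0.75), Lck 199 to 239 CPM in Cre control and 126 to 150 CPM in WT (0.70), and Cd2 differed by 0.25. The defining T cell gene Cd3e was at or below 0.269 CPM in Cre control and 0.222 CPM in WT. Among erythroid markers Hba-a1, Hba-a2 and Hbb-b1 were at 0 in all 8 libraries, and Car2 was slightly lower (-0.30), a call lost without WT replicate 2 (-0.27) or 3 (-0.27). Among stromal and endothelial markers Col3a1 was at 0 in all 8 libraries, and Pecam1 had 48.1 to 61.2 CPM in Cre control and 69.2 to 70.3 CPM in WT (-0.36). The part of other cells in the differences above was not tested.

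The same classes were compared in KO against D370Y, a pair of groups with no library in common with Cre control or WT. KO shares the named kit with Cre control. Of 10276 tested genes 5994 (58.3%) were called, 2102 (20.5%) higher and 3892 (37.9%) lower in KO. This split depended on the scaling: with TMM factors 3794 were higher and 3638 lower, and the median of all genes moved to 0.04, against -0.07 as deposited. With each library centred on its median the numbers were 3634 and 3715. Without KO replicate 3, in which 64.4% of the reads in the denominator fell on listed genes, they were 3489 and 3968.

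Over 10190 genes tested in both, the 2 sets of differences correlated at r = 0.978 and rho = 0.953 across genes, a description over genes of shared length, composition and copies. Called higher in both were 2044 genes, 51.8% of the higher calls in Cre control against WT and 97.3% of those in KO against D370Y. Called lower in both were 3496 genes, 88.9% of the lower calls in Cre control against WT and 90.9% of those in KO against D370Y. Opposite calls numbered 8. Snx22 differed by 7.14 in KO minus D370Y, Mir682 by 6.74, Fos by 5.86 and Samd9l by -3.94. Class medians in KO minus D370Y were 1 for ribosomal proteins, 0.50 for tubulins, -0.85 for Zfp genes, 0.37 for immediate early genes, 0.52 for myeloid markers and 0.00 for heat shock. The Tbl1xr1 genotype differs between KO and D370Y, so genotype and library set cannot be told apart there.

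**Figure D4:**
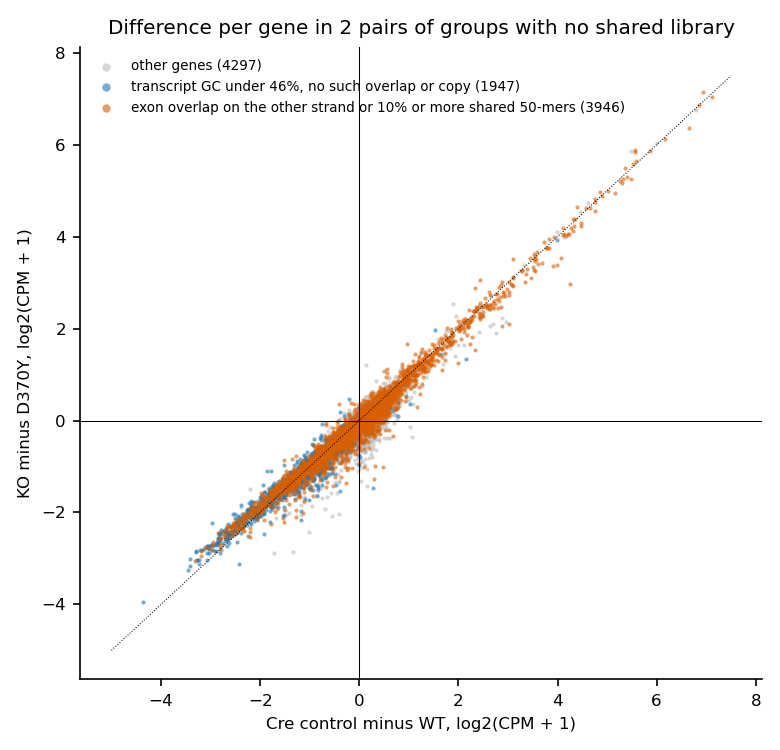
Log2 difference of CPM + 1 for each of 10190 genes, KO minus D370Y against Cre control minus WT, coloured by gene class: 3946 genes with overlap or at least 10% shared words, 1947 others with less than 46% G and C, and 4297 remaining. The points lie along the diagonal, with r = 0.978.

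Across all 6 groups the class levels fell into more than one pattern. Ribosomal proteins took 3.75% to 4.60% of reads in Cre control, 3.15% to 4.73% in KO, 3.59% to 4.06% in ImuBcl6_D370Y, 2.66% to 3.54% in ImuBcl6, 1.93% to 2.44% in D370Y and 2.09% to 2.16% in WT. Genes sharing at least 50% of their words took 1.5% to 2.13% in the 4 groups other than D370Y and WT, and 0.791% to 0.946% in these 2. Genes under 42% G and C took 5.27% to 5.98% in Cre control, 5.04% to 7.31% in KO, 8.05% to 10.6% in ImuBcl6_D370Y, 7.81% to 10.7% in ImuBcl6, 11.3% to 12.4% in D370Y and 11.7% to 13.0% in WT. Both ImuBcl6 groups thus lay between Cre control and WT in AT-rich genes, and in ribosomal proteins ImuBcl6 lay below Cre control and above WT. Snx22 averaged 165 CPM in Cre control, 159 in KO, 165 in ImuBcl6_D370Y, 141 in ImuBcl6, 0.112 in D370Y and 0.362 in WT. Fos averaged 92.3 CPM in Cre control, 130 in KO, 175 in ImuBcl6_D370Y, 179 in ImuBcl6, 1.15 in D370Y and 1.05 in WT. Samd9l averaged 6.26 CPM in Cre control, 11.1 in KO, 56.4 in ImuBcl6_D370Y, 45.6 in ImuBcl6, 157 in D370Y and 145 in WT. C1qa followed another order, at 14.8 CPM in Cre control and 16.1 in KO, against 1.22 in ImuBcl6_D370Y, 0.666 in ImuBcl6, 2.43 in D370Y and 1.12 in WT. Heat shock genes took 0.642% to 0.741% of reads in Cre control, 0.617% to 0.673% in KO, 0.756% to 0.834% in ImuBcl6_D370Y, 0.775% to 0.857% in ImuBcl6, 0.488% to 0.558% in D370Y and 0.532% to 0.576% in WT.

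**Figure D5:**
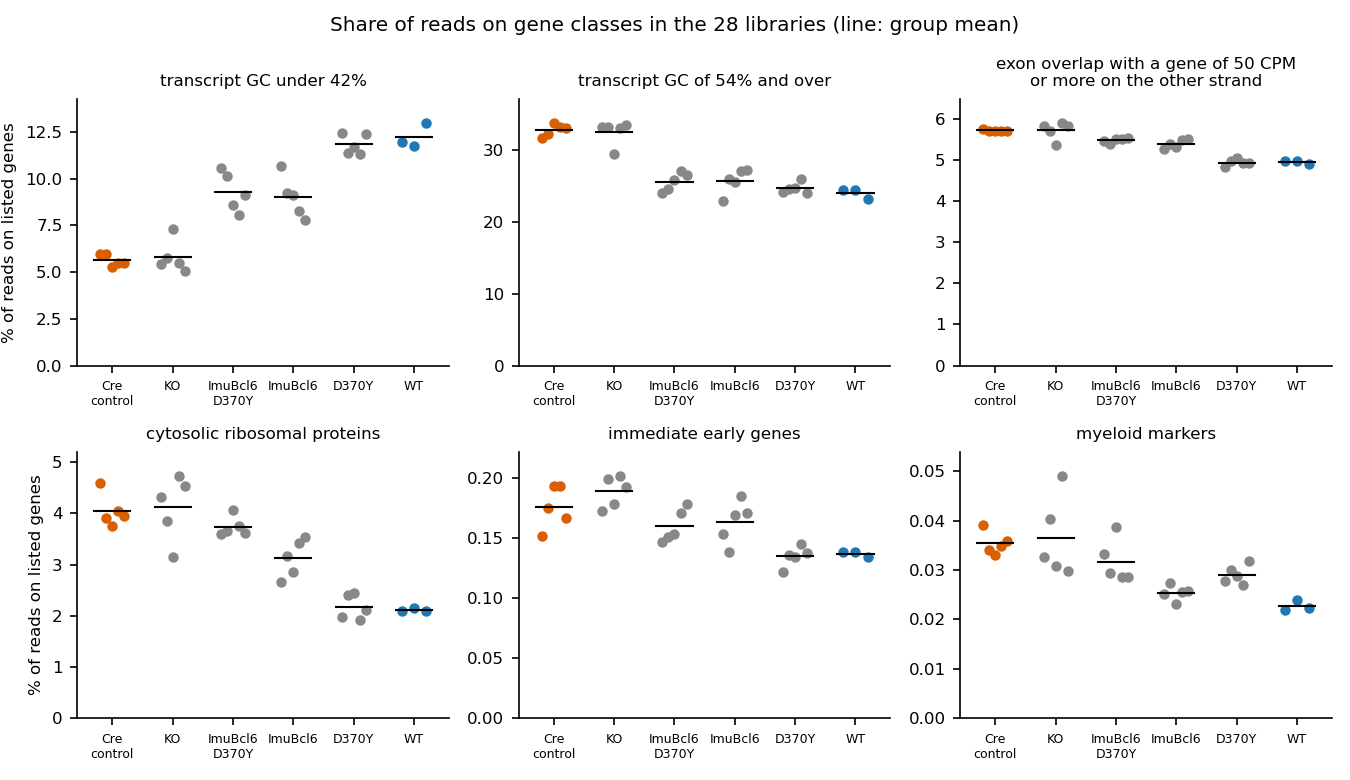
Percent of the reads on listed genes taken by 6 gene classes, with 1 point per library in the 6 groups and a line at each group mean. In ribosomal proteins D370Y and WT lie below the other 4 groups, and in genes under 42% G and C they lie above.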

How the data were processed

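RNA-seq of mouse germinal center B cells was analysed from 28 deposited tables, 1 per library. The authors deposited CPM per gene symbol, aligned with STAR to mm10 per the submitters' processing notes. No label names the read counter, its treatment of strand and multi-mapping reads, or the gene models. In every library 100% of values were whole numbers of reads within 0.01 of a read, so reads could be recovered. Of 23382 symbols 22103 were autosomal, and 10335 with at least 1 CPM in 3 or more of the 8 libraries were tested. The 330 X or Y symbols and 55 symbols without a chromosome that passed this filter were not in the main fit. An alternative fit took them in.

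Deposited CPM were fitted as log2(CPM + 1) with limma 3.58.1 (R 4.3.3), with mean-variance trend and robust moderation, two-sided, Benjamini-Hochberg over all tested genes. KO against D370Y was fitted alike. The difference between the 2 comparisons was a contrast in a fit of 4 groups. edgeR 4.0.16 and DESeq2 1.42.0 on recovered reads were alternatives and called 7977 and 7914 genes, against 7970 by limma. Others were other pseudocounts, filters, scalings and left-out libraries. The contrast of comparisons, the composition and length correction and the middle genes were chosen after the data were seen. The procedure was tested on simulated data in which few genes changed and base composition had no part. That test does not cover a shift of most genes, as found here. Adjusted p-values without another source are from limma.

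Coordinates, transcript composition, 50-base words shared between loci and exon overlaps came from GENCODE M21 (GRCm38), and the microRNA sequence from RefSeq. Named genes were the 12 largest rises and falls at a mean of 5 CPM or more, up to 4 called genes per class or list, Tbl1xr1 and Bcl6. Some of them are not reported here. Further list members (Ncor1, Hdac3, Rpl5, Rpl23, Rplp2, Hspa8, Hsp90ab1, Fosb, Rhob, Zfp36, Ier2, Dusp5, Dusp2, Nr4a1, Egr1, Junb, Klf6, Cd69, Btg2, Csf1r, Mpeg1, Cd2, Cd3e and Col3a1) were chosen after their values were seen. Members and lists were chosen with earlier results of these data known.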

Additional observations from a re-analysis of the deposited data

Results flagged for a closer look

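In the Cre control group, 13 of 150 sets of 5 values had 1 library far from the others by Dixon's criterion (critical value 0.71), where chance gives about 1 set in 20. Replicate 1 was high in 6 of them. It had 291 CPM of Mir682, against 218 to 235 CPM in the other 4 libraries, 161 CPM of Gm5148 (others 130 to 136), 245 CPM of Atp5j2 (others 198 to 208), 103 CPM of Phgdh (others 92.4 to 95.2) and 21.8 CPM of C1qb (others 12.2 to 14.5). Genes that overlap, on the other strand, a gene of 50 CPM or more took 5.76% of its reads (others 5.70% to 5.71%). Replicate 5 had 261 CPM of H2-T23 (others 225 to 234), 41.5 CPM of Cirbp (others 27.5 to 29.3) and 0.0806 CPM of Mir3064 (others 0.210 to 0.262). Replicate 2 had 193 CPM of Mef2c (others 165 to 170) and 32.0 CPM of Ppp3ca (others 23.1 to 25.4). Replicate 4 had 142 CPM of Nubp1 (others 155 to 160), and replicate 3 had 0.760 CPM of Capn11, which was at 0 in the other 4.

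The signed difference KO minus D370Y was subtracted from the signed difference Cre control minus WT. This contrast was positive for 13 of 10634 genes (limma, adjusted p below 0.05), and 651 genes had an unadjusted p below 0.05. A positive contrast can come from a fall in KO against D370Y, without a rise in Cre control against WT. The 13 genes were chosen by this test. The contrast was 1.62 for Emp2, 1.49 for Lyz2, 1.37 for Capn11, 1.34 for Plac8, 1.32 for Ccnd2, 1.24 for Cxcl10, 1.15 for Efcab7, 1.04 for Celsr1, 1.02 for 2810025M15Rik, 0.96 for S100a10, 0.93 for Hepacam2, 0.93 for Ffar2 and 0.88 for Hip1. Plac8 averaged 27.9 CPM in Cre control and 27.2 CPM in WT, and 29.5 CPM in KO and 74.2 CPM in D370Y. Emp2 averaged 5.39 CPM in Cre control and 7.37 CPM in WT, and 0.913 CPM in KO and 6.95 CPM in D370Y. Library set and genotype cannot be told apart in KO against D370Y.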

How the results depend on the processing

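The number of genes called in Cre control against WT was 6535 to 8574 under the alternatives that leave out no single library, apart from the 174 middle genes, by construction a smaller set, of which 106 were called. Leaving out 1 library gave 7312 to 8091. For KO against D370Y, leaving out 1 library gave 5139 to 7457. The correction for composition and length gave 4010 higher and 2067 lower there, edgeR 3781 and 3601, DESeq2 3741 and 3687, and library weights 3933 and 4208. A replicate block gave 7226 calls on replicates 1 to 3, against 7539 without it, and 5321 in KO against D370Y. Replicate numbers did not pair the libraries, since same-numbered deviations correlated at -0.15, -0.07 and -0.21. Of 3429 values of 138 named genes, 3356 kept direction and side of the threshold, 41 lost the call, 11 gained it and 21 turned. Under the correction for composition and length, added after the data were seen, the differences that turned were Snord12 at 0.75, Snhg6 at 0.31, Hspa4l at 0.24, Cirbp at -0.25, Zeb2 at 0.30, Tbl1xr1 at 0.44, Klf6 at 0.022, Cd69 at 0.71, Dusp5 at -0.039, Dusp2 at -0.16, Nr4a1 at -0.14, H2-Eb2 at 0.0086, Hepacam2 at 0.85, Efcab7 at 0.62, Nubp1 at -0.0094, Evl at -0.033 and Tcp1 at 0.45. Plac8, not called, had -0.0202 to 0.0983 with 1 library left out, and -0.13 with the Xist term. Of 863 class medians 23 had the other sign, none of them under TMM scaling, median centring or CPM over listed genes. The cause was not tested. Depth limits genes near 3 reads. Most short RNAs did not pass the filter. Of 662 listed microRNA genes, 537 had no read in any Cre control library and 594 had none in any WT library.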

Other observations

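Rn45s, the ribosomal RNA precursor, whose symbol has no chromosome in the annotation used, had 18319, 15982, 15978, 16156 and 17178 CPM in Cre control libraries and 11681, 9896 and 9506 CPM in WT libraries. Every Cre control library was higher. Rn45s was not in the main fit, and entered only the alternative fit with all chromosomes and unplaced symbols.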
